A study of Mus musculus with 18 samples.

Results

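The response of R47H/+ microglia to tau fibrils was read from 6 RNA sequencing libraries of primary mouse microglia, out of 18 in the series. Its members are the 3 libraries of R47H/+ cells that received tau and the 3 of R47H/+ cells that did not, compared over the 13267 of 54532 listed genes that passed a filter on low counts. All 6 came from cells of the genotype labelled hTrem2 R47H/+. Microglia were taken from pups of post-natal day 0 to 3, kept in mixed culture for 10 days, isolated and plated. Both groups had a 6 h pre-treatment with 0.01% DMSO, the vehicle. The treated group then received 0N4R tau fibrils at 1 ug/ml, and the other group received none; how long the cells were left with tau is not given in the sources used here. The comparisons of responses also use 3 Trem2+/+ libraries with and 3 without tau, handled alike, and 3 R47H/+ libraries with and 3 without tau after 6 h with 1 uM MK-2206, which blocks the kinase Akt. Whether replicates came from separate cultures, and whether pups were pooled, is not stated in the labels; the p-values therefore reflect spread among these libraries, which may be technical.

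Microglia are the resident macrophages of the brain and take up aggregated protein, tau fibrils included. TREM2 is a lipid-sensing surface receptor that signals through the adaptor Tyrobp to the kinase Syk and on to PI3K and Akt, and the R47H form is a risk variant for Alzheimer disease. Fibrils and other danger signals also reach pattern receptors, whose adaptors activate NF-kB and interferon regulatory factors. NF-kB then drives cytokines together with its own inhibitors, while secreted interferon acts through JAK kinases and STAT factors on a large set of antiviral genes.

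The 6 libraries held between 16288531 and 19750545 counts. The first principal component of log2 CPM (counts scaled to a common library size) carried 68.8% of the variance and separated the libraries with tau from those without. The second component, with 16.3%, set tau replicate 2 apart at 40.82, against -29.6 and -23.94 for tau replicates 1 and 3. That library read long genes low and short genes high. Its shift from the untreated libraries ran from 0.45 in the bin of shortest genes (median 870 bp) to -0.69 in the bin of longest genes (median 12099 bp), on the log2(CPM + 0.5) scale. In tau replicates 1 and 3 the same bins lay between -0.15 and 0.095. Counts of called genes are therefore given with all 6 libraries and without tau replicate 2, and a gene named as risen or fallen kept that call without this library unless the text says otherwise. Its part in results that moved with it was not tested.

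**Figure D1:**
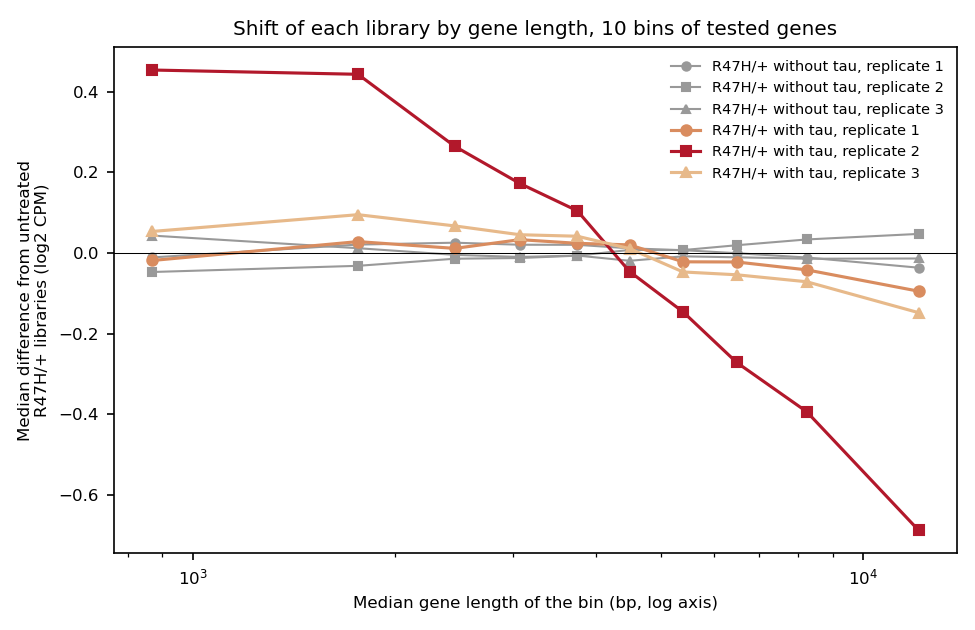
Median difference of each R47H/+ library from the mean of the untreated R47H/+ libraries (y axis, log2(CPM + 0.5) units) in 10 bins of tested genes ordered by gene length (x axis, bp, log scale). Each line is 1 library; tau replicate 2 falls from 0.45 to -0.69 while the other 5 stay between -0.15 and 0.095.

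Markers of macrophages were abundant in every library. The summed level of 10 defining microglia and macrophage genes was 8988 to 9341 CPM without tau and 8263 to 10970 CPM with tau. Tmem119, a marker of adult microglia, stood at only 0.926, 0.877 and 0.447 CPM untreated and 0.7302, 2.53 and 0.686 CPM after tau, and Siglech did not pass the count filter. The 10 lymphocyte markers summed to at most 0.586 CPM in any library, and 5 of them were at 0 in all 6. Neuron markers (12) summed to 1.82 to 5.49 CPM. The 12 astrocyte markers summed to 378.7 to 420.8 CPM without tau and 177.2 to 191.5 CPM with tau; most of this was glutamine synthetase, Glul, which macrophages also express, and Gfap had a mean of 0.375 CPM without and 0.545 CPM with tau. The 12 oligodendrocyte markers summed to 258.0 to 261.4 CPM without and 264.4 to 289.9 CPM with tau. Taken singly, 2 of them were called higher and 5 lower (2 and 4 without tau replicate 2), with a median log2 change of -0.74. The 10 monocyte and granulocyte markers lay at 291.7 to 305.9 CPM without and 398.8 to 428.5 CPM with tau, and 5 of them were at 0 throughout. The 8 markers of border macrophages summed to 2229 to 2370 CPM without and 1645 to 1710 CPM with tau. The 13 fibroblast and vessel markers went from 66.3 to 78.6 CPM without tau to 83.8 to 154.0 CPM with tau, and 2 of them were at 0 throughout. The part of these other cell types in the results was not tested. In bulk RNA, fewer cells of a type and less RNA per cell cannot be told apart.

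Promoters are shown for 6 called members of the families described below, each with a match to the motif searched in its family. Each line gives 150 bases upstream of the annotated start from RefSeq (GRCm38.p6), read 5′ to 3′ on the gene's strand, with the motif match in capitals (either strand, so the capitals can be the motif's reverse complement). Over 250 upstream bases of 9779 tested genes with an entry, on both strands, the NF-kB motif GGGNNTTNCC was found in 5.71%, the interferon-response motif GAAANNGAAA in 3.53% and the sterol motif TCACNCCAC in 1.26%.
Nfkbia, NF-kB motif, minus strand, chr12:55492648-55492797: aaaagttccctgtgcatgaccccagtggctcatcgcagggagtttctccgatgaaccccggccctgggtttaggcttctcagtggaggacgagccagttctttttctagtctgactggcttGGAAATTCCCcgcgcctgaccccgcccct
Tnfaip3, NF-kB motif, minus strand, chr10:19015411-19015560: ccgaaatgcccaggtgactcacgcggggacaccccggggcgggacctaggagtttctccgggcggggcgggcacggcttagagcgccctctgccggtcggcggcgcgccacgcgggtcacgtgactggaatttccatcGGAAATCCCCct
Cxcl10, NF-kB motif, minus strand, chr5:92348890-92349039: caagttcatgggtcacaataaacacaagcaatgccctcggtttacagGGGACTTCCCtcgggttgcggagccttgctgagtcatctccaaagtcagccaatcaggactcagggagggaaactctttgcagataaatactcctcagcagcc
Gbp2, interferon-response motif, plus strand, chr3:142620513-142620662: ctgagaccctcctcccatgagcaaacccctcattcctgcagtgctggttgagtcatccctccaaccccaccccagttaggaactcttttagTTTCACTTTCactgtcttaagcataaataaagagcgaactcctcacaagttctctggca
Isg15, interferon-response motif, minus strand, chr4:156200819-156200968: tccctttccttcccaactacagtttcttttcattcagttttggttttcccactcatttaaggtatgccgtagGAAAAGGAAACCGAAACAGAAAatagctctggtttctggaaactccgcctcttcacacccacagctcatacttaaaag
Hmgcs1, sterol motif, plus strand, chr13:119690201-119690350: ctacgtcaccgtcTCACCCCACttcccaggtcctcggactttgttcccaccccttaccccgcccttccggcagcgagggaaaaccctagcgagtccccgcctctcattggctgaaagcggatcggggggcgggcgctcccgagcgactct
The capitals in Isg15 hold 3 overlapping matches. Of the genes with an entry, the NF-kB motif was present in 10 of 23 members of the NF-kB list, in 4 of 8 CXC and CX3C chemokines and in 1 of 8 CC chemokines. The interferon-response motif was present in 11 of 12 immunity GTPases and in 11 of 32 antiviral genes, and the sterol motif in 1 of 18 cholesterol genes, which was Hmgcs1. A match is a description of these letters and does not show that a factor was bound.

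With tau, 1991 genes rose (15% of those tested) and 1676 fell (12.6%) in R47H/+ cells, 3667 in all or 27.6%. A gene was called where its adjusted p in edgeR's quasi-likelihood test was under 0.05. Without tau replicate 2 the count was 2857 (21.5%), with 1636 higher (12.3%) and 1221 lower (9.2%). These shares are the background for each list count below. Of these 2857 genes 2704 were also called with all libraries, and 0 genes were called in the opposite direction. The shared estimate of spread also takes in Trem2+/+ replicate 3, an untreated library with a steeper trend of the same sign, and with both libraries left out 5735 genes were called, 3561 of them shared. Among the genes that rose, 946 rose over 2-fold, 350 over 4-fold and 63 over 16-fold. Among those that fell, 667 fell over 2-fold, 160 over 4-fold and 21 over 16-fold. Split by gene length, the third of shortest genes (up to 2969 bp) had 764 higher and 296 lower, and the third of longest genes (above 5548 bp) had 433 higher and 771 lower. With tau replicate 2 left out these counts were 566 and 271 for short genes and 417 and 492 for long genes. Together the genes that rose took 18.4% to 19.4% of all counts without tau and 32.0% to 34.3% with tau. Those that fell took 15.6% to 16.1% without tau and 7.74% to 9.08% with tau.

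Among called genes, the largest gains in level included storage, cytoskeletal and defence genes. The ferritin heavy chain Fth1 rose from 11748 to 26766 CPM, the class I heavy chain H2-K1 from 3872 to 8124 CPM and complement C3 from 812 to 4063 CPM. The actin gene Actb, the interferon regulator Irf7 and the antiviral genes Rsad2 and Ifit2 were also among the largest gains. The largest losses in level among called genes were those of 3 abundant genes. Genes that were not called, such as Apoe, given below, were left out of this ranking. The membrane glycoprotein Gpnmb fell from 13130.0 to 8511 CPM, the saposin precursor Psap from 18551 to 13987 CPM and osteopontin, Spp1, from 7408 to 4215 CPM. Selenop, the lipoprotein lipase Lpl and the mannosidase Man2b1 also fell.

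Ranked by fold, the 15 strongest rises in genes of a fixed minimum level included Ccl5, Nos2, Ccl7, Ch25h, Cxcl10, Vcam1, Acod1, Slco3a1, Cxcl13, Ccl12, Clec4e, Ccl2, Cd40 and H2-M2. Vcam1, an adhesion molecule for integrins, measured 2.01, 1.87 and 1.17 CPM untreated and 43.1, 43.6 and 35.8 CPM after tau. It rose by 4.59 on the log2 scale (SE 0.345, edgeR adjusted p = 6.83e-08). The organic anion transporter Slco3a1 measured 2.37, 1.75 and 1.23 CPM untreated and 42.8, 35.8 and 45.6 CPM after tau, a rise of 4.53 (SE 0.209, edgeR adjusted p = 8.45e-10). The ranking admitted only genes whose libraries with and without tau did not overlap, so that separation is part of the rule. Clec4e, the receptor Mincle, which senses mycobacterial lipid and dead cells, measured 34.7, 24.7 and 27.03 CPM untreated and 523, 553 and 479.7 CPM after tau, a rise of 4.17 (SE 0.407, edgeR adjusted p = 1.08e-06). The non-classical class I gene H2-M2 measured 20.1, 14.7 and 12.6 CPM untreated and 250.1, 218 and 249.8 CPM after tau, a rise of 3.92 (SE 0.2896, edgeR adjusted p = 6.24e-08).

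The 15 strongest falls were Hpgd, Dkk2, Rasgrp3, Gpr34, Nat8l, Rnf150, S1pr1, Tln2, Cd28, Reps2, St6gal1, Adamts1, Slc40a1, Irs2 and Cyp51. Hpgd, the dehydrogenase that inactivates prostaglandins, measured 141, 167 and 146 CPM untreated and 3.53, 4.305 and 4.34 CPM after tau, a log2 change of -5.21 (SE 0.292, edgeR adjusted p = 3.48e-09). Dkk2, a secreted Wnt antagonist, measured 52.3, 55.1 and 48.6 CPM untreated and 1.89, 2.12 and 2.34 CPM after tau, a change of -4.61 (SE 0.187, edgeR adjusted p = 6.79e-10). Rasgrp3, an exchange factor for Ras and Rap, measured 139, 157 and 139.6 CPM untreated and 9.13, 5.28 and 9.03 CPM after tau, a change of -4.22 (SE 0.248, edgeR adjusted p = 5.94e-09). The same rule applied to these genes. S1pr1, a receptor for sphingosine phosphate, measured 33.1, 35.6 and 33.7 CPM untreated and 5.84, 4.59 and 5.14 CPM after tau, a change of -2.72 (SE 0.133, edgeR adjusted p = 1.04e-09). St6gal1, which adds sialic acid to glycoproteins, measured 73.4, 79.1 and 76.6 CPM untreated and 14, 9.93 and 12 CPM after tau, a change of -2.67 (SE 0.129, edgeR adjusted p = 1.01e-09). The insulin receptor adaptor Irs2 measured 28.03, 32.7 and 33.95 CPM untreated and 5.54, 3.39 and 7.77 CPM after tau, a change of -2.5 (SE 0.33, edgeR adjusted p = 2.65e-05), and -2.24 without tau replicate 2.

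**Figure D2:**
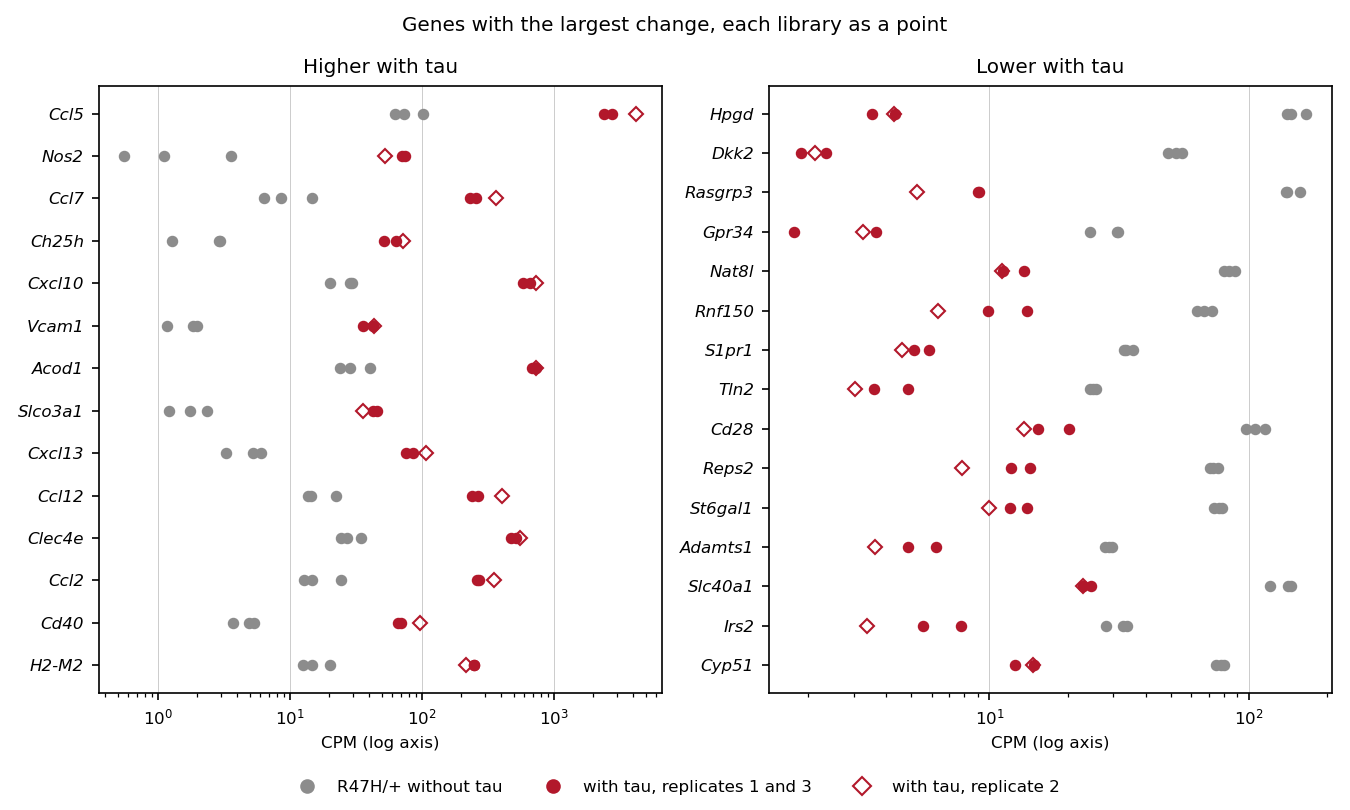
CPM (x axis, log scale) of genes from the 15 with the largest rise (left) and the 15 with the largest fall (right); each point is 1 library, grey without tau, red with tau, and the open diamond is tau replicate 2. Genes whose red and grey points overlap were not admitted; Hpgd, at the top right, ran from 141 to 167 CPM without and from 3.53 to 4.34 CPM with tau.

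Chemokine ligands rose broadly. Of 13 CC chemokines tested 8 rose and 0 fell, with a median log2 change of 1.31, beside 15% and 12.6% and a median near 0 over all genes tested; the counts were the same without tau replicate 2. Ccl5, which attracts T cells and monocytes, measured 103, 73.9 and 63.3 CPM untreated and 2786, 4234 and 2408 CPM after tau, a rise of 5.3 (SE 0.443, edgeR adjusted p = 1.94e-07). The monocyte attractant Ccl7 measured 14.9, 8.65 and 6.37 CPM untreated and 259, 369 and 234 CPM after tau, a rise of 4.85 (SE 0.347, edgeR adjusted p = 4.59e-08). Ccl2 and Ccl12, which share its receptor, rose by 4.08 and 4.18, and Ccl8 by 3.17. Ccl2, Ccl7 and Ccl12 lie near each other on chromosome 11 between 82035571 and 82103400 (GRCm38). Ccl3, Ccl4 and Ccl9 rose from 119.5 to 219.5 CPM, 72.9 to 235 CPM and 369 to 913 CPM. Of 10 CXC and CX3C chemokines 6 rose and 0 fell (6 and 0 without tau replicate 2). Cxcl10, an interferon-induced ligand of Cxcr3, measured 29.9, 20.4 and 28.7 CPM untreated and 665, 731 and 586 CPM after tau, a rise of 4.65 (SE 0.3504, edgeR adjusted p = 7.1e-08). The other Cxcr3 ligands, Cxcl9 and Cxcl11, went from 1.36 to 41.9 CPM and 0.161 to 26.3 CPM, the latter from 9 counts in the 3 untreated libraries together. Cxcl13, which attracts B cells, rose by 4.19. Cxcl14 (-0.0024) and platelet factor Pf4 (-0.092) were not called.

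Chemokine receptors split, with 4 higher and 4 lower of 11 (4 and 2 without tau replicate 2). Cxcr4, the receptor of Cxcl12, measured 109, 115 and 107 CPM untreated and 31.6, 31.5 and 28 CPM after tau and fell by 1.86. The fractalkine receptor Cx3cr1 measured 83.7, 92.6 and 81.5 CPM untreated and 40.3, 30.4 and 38.9 CPM after tau and fell by 1.23. Ccr2, the receptor of Ccl2, was called lower at -0.56 with all libraries but not without tau replicate 2 (edgeR adjusted p = 0.0736). Ccrl2, a chemerin-binding receptor, rose by 1.5.

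Among TNF superfamily ligands, 4 of 9 rose and 1 fell, the same counts as without tau replicate 2. Tnf, the founding member, measured 13.99, 10.9 and 13.3 CPM untreated and 67.1, 81.8 and 72.4 CPM after tau, a rise of 2.53 (SE 0.172, edgeR adjusted p = 2.46e-08). Of 25 TNF receptors and adaptors 11 rose and 0 fell (11 and 0 without tau replicate 2). Cd40, the receptor for a T cell ligand, measured 5.4, 3.74 and 4.97 CPM untreated and 66.7, 97.8 and 70.2 CPM after tau, a rise of 4.05 (SE 0.2302, edgeR adjusted p = 4.06e-09). The adaptor Traf1 went from 0.455 to 23.3 CPM, on 25 counts in the untreated libraries together, and Fas, a death receptor, rose from 3.28 to 14.9 CPM. Traf2, Birc3 and Cflar, which hold TNF signalling on the survival side, rose by 1.27, 1.45 and 1.02. Both TNF receptors rose less, Tnfrsf1a by 0.47 and Tnfrsf1b by 0.44, and the kinase Ripk1 was at -0.063, not called.

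In the interleukin 1 family and inflammasome list 13 of 24 members rose and 2 fell (13 and 1 without tau replicate 2). Secreted inhibitors were among them: the receptor antagonist Il1rn measured 44.3, 35.8 and 31.05 CPM untreated and 403, 435 and 390.1 CPM after tau, a rise of 3.47 (SE 0.156, edgeR adjusted p = 8.45e-10), and the interleukin 18 binding protein Il18bp measured 31.4, 29.5 and 31.8 CPM untreated and 165, 186 and 129 CPM after tau, a rise of 2.37 (SE 0.184, edgeR adjusted p = 9.08e-08). Il1a and Il18 themselves rose by 1.23 and 1.32. Il1b measured 42.4, 38.4 and 38.2 CPM untreated and 64.1, 89.2 and 64.6 CPM after tau and was not called at 0.87 (edgeR adjusted p = 0.0533). The inflammatory caspases Casp1 and Casp4 and the pore protein Gsdmd rose by 1.41, 1.7 and 1.19, and the sensors Nlrp3, Nlrc4 and Aim2 by 0.88, 0.88 and 0.65. The adaptor Pycard was at 0.63, not called. Il1r1, the receptor, was low throughout and fell from 0.738 to 0.214 CPM.

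Of 23 other cytokines and growth factors 7 rose and 2 fell, the same as without tau replicate 2. Il27 and its partner Ebi3 rose from 2.098 to 11.4 CPM and 36.3 to 84.99 CPM, and Il15, which sustains lymphocytes, from 27.2 to 72.2 CPM. Il12b had 0 counts in all untreated libraries together and measured 2.495, 1.61 and 2.34 CPM with tau. Il10, an anti-inflammatory cytokine, measured 0.36, 0.526 and 0.168 CPM untreated and 1.52, 2.296 and 1.43 CPM after tau. Il6 and Il23a did not pass the count filter. Pdgfb, a growth factor for pericytes, fell by 1.27. Of 31 cytokine and growth factor receptors 7 rose and 6 fell, against 8 and 2 without tau replicate 2. The interleukin 15 receptor chain Il15ra rose from 11 to 75.8 CPM and the shared gamma chain Il2rg from 62.3 to 287 CPM. Igf1r, the receptor of insulin-like growth factor, and Lifr fell by 1.45 and 1.58. The falls of Il6ra, Tgfbr1 and Tgfbr2 (-0.63, -0.57 and -0.5) were lost without tau replicate 2. Csf1r, on which microglia depend for survival, was at -0.12, not called.

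In the NF-kB list 15 of 28 members rose and 0 fell, with all libraries and without tau replicate 2. They included inhibitors, non-canonical subunits and kinases. Nfkbia, the inhibitor IkB alpha, measured 56.98, 46.5 and 55.7 CPM untreated and 166, 163 and 155 CPM after tau, a rise of 1.61 (SE 0.152, edgeR adjusted p = 7.71e-07). Nfkbie, another inhibitor, measured 16.7, 17.2 and 17.9 CPM untreated and 72.7, 76.7 and 76.7 CPM after tau, a rise of 2.13 (SE 0.176, edgeR adjusted p = 1.78e-07). The deubiquitinase Tnfaip3 measured 45.1, 40.3 and 42.3 CPM untreated and 96.7, 68.1 and 88.1 CPM after tau, a rise of 0.99 (SE 0.164, edgeR adjusted p = 0.00025). The promoters of Nfkbia and Tnfaip3 are among those shown above. Relb, Nfkb2 and the atypical family member Bcl3 rose by 1.35, 1.05 and 1.65, and the kinases Ikbke and Tbk1 by 1.6 and 0.54. The canonical subunits were not called: Rela was at 0.035, Rel at -0.13 and Nfkb1 at 0.1.

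Early response genes and MAP kinase phosphatases moved both ways, 14 higher and 5 lower of 33 (12 and 3 without tau replicate 2). Dusp1, a phosphatase of p38 and JNK, measured 10.1, 9.24 and 8.77 CPM untreated and 27.1, 26.6 and 28 CPM after tau and rose by 1.54. The related Dusp2 and Dusp5 rose by 2.3 and 1.39, and the AP-1 partners Batf2, Batf and Junb by 2.4, 1.75 and 0.93. Myc and the orphan receptor Nr4a1 fell by 1.03 and 1.83. The calls of Fos (0.38), Atf3 (0.38) and Dusp7 (-0.72) were lost without tau replicate 2, and Jun, Egr1 and Ier2 were not called (-0.31, -0.27 and 0.25).

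Interferon signalling genes rose in part. Ifnb1, the gene of interferon beta, measured 0.566, 0.877 and 0.223 CPM untreated and 6.09, 8.26 and 5.09 CPM after tau, a rise of 3.54 (SE 0.3897, edgeR adjusted p = 4.06e-06) on 30 counts without and 333 with tau. Of 13 interferon regulatory factors and receptors 5 rose and 2 fell, with and without tau replicate 2. Irf7 measured 1410.2, 1210.5 and 1194 CPM untreated and 3221, 4493 and 3788 CPM after tau, a rise of 1.59 (SE 0.133, edgeR adjusted p = 1.94e-07). Irf1 rose by 1.26 and Irf5 by 0.79, while Irf4 and Irf8 fell by 1.11 and 0.35. Irf3, Irf9 and both chains of the type I receptor, Ifnar1 and Ifnar2, were not called (0.035, 0.14, 0.092 and 0.098). Of 23 JAK, STAT and SOCS genes 8 rose and 2 fell (9 and 1 without tau replicate 2). Socs1 and Socs3, feedback inhibitors of JAK kinases, measured 8.64, 8.13 and 7.93 CPM untreated and 44.3, 47.98 and 42.9 CPM after tau and 18.3, 14.3 and 15.7 CPM untreated and 59.6, 64.1 and 70.9 CPM after tau. They rose by 2.45 and 2.01, Usp18, which curbs the interferon receptor, by 2.12, and Jak2 and Tyk2 by 1.36 and 1.11. Socs6 fell from 142 to 39.5 CPM, and Jak1 was at -0.099, not called.

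Of 22 GTPases of cell-autonomous immunity, which attack the vacuoles of intracellular microbes, 21 rose and 0 fell, with a median log2 change of 1.84 (22 higher without tau replicate 2, the added gene being Gbp9). Gbp2 measured 177, 159 and 155 CPM untreated and 1259, 1287 and 1050.1 CPM after tau, a rise of 2.87 (SE 0.185, edgeR adjusted p = 1.54e-08). Gbp5, a guanylate-binding protein that promotes inflammasome assembly, measured 45.6, 37.6 and 42.4 CPM untreated and 353, 295 and 336 CPM after tau, a rise of 2.97 (SE 0.2905, edgeR adjusted p = 1.12e-06). Tgtp2, Igtp and Mx1 rose by 3.18, 1.74 and 2.01. Several of these genes, such as Tgtp1 and Tgtp2 or Gbp2 and Gbp2b, are close copies, and reads may be split between them. Of 37 antiviral effectors and ISG15 genes 29 rose and 1 fell, the same as without tau replicate 2, with a median of 1.14. Rsad2, viperin, measured 679, 583 and 547 CPM untreated and 3327, 2693 and 3068 CPM after tau, a rise of 2.33 (SE 0.153, edgeR adjusted p = 1.83e-08). Isg15, the ubiquitin-like modifier whose promoter is shown above, measured 235, 194 and 221 CPM untreated and 741, 1362 and 892 CPM after tau, a rise of 2.2 (SE 0.323, edgeR adjusted p = 7.48e-05). Its activating and conjugating enzymes Uba7 and Ube2l6 rose by 1.14 and 1.34. The nucleotide kinase Cmpk2 and the nuclease Isg20 rose by 2.66 and 3.08, and the RNA sensors Ifih1 and Ddx58 by 1.04 and 0.78. Ifitm1 fell by 1.16, while Parp14 (0.02) and Oasl2 (0.29) were not called.

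Class I antigen presentation genes rose, and most class II genes were not called. Of 20 class I and peptide loading genes 17 rose and 0 fell (16 and 0 without tau replicate 2). H2-K1 measured 4148, 3803 and 3664 CPM untreated and 6961, 9700.3 and 7710.1 CPM after tau, a rise of 1.07 (SE 0.206, edgeR adjusted p = 0.000942). The peptide transporter Tap1 measured 424, 393 and 403 CPM untreated and 806, 898 and 884 CPM after tau, a rise of 1.08 (SE 0.115, edgeR adjusted p = 2.68e-06). The immunoproteasome subunits Psmb8, Psmb9 and Psmb10 rose by 1.57, 1.33 and 1.62. H2-Q6 and H2-Q7 rose by 2.96 and 2.93; they are near-identical and their reads may be shared. The calls of H2-D1 and H2-T23 were lost without tau replicate 2 (edgeR adjusted p = 0.0898 and 0.0589), and B2m was not called at 0.5. Of 10 class II genes 1 rose and 1 fell; H2-Oa rose from 1.302 to 7.38 CPM, and the call of H2-Aa (-0.93) was lost without any 1 of the 6 libraries. Cd74, the invariant chain, was at 0.17 and the class II regulator Ciita at -0.61, neither called. A difference between the class I and class II lists was not tested.

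Pattern receptors rose in 9 of 20 cases and fell in 0 (6 and 0 without tau replicate 2). Tlr1 and Tlr2, which pair to sense lipoproteins, rose from 76.3 to 279 CPM and 162 to 256 CPM, and Tlr3, a sensor of double-stranded RNA, from 52.7 to 142 CPM. Tlr4 (-0.13), Tlr7 (-0.28) and Tlr9 (0.69) were not called. Of 22 Fc and sialic acid receptors 11 rose and 5 fell (9 and 5 without tau replicate 2). The activating Fc receptors Fcgr1 and Fcgr4 rose by 1.48 and 1.41, and the inhibitory sialic acid receptor Siglece measured 3.55, 4.33 and 4.19 CPM untreated and 45.8, 57.6 and 47.3 CPM after tau, a rise of 3.64 (SE 0.303, edgeR adjusted p = 1.85e-07). Fcgr3 fell from 569 to 216 CPM, the inhibitory Fcgr2b from 589 to 384 CPM and Cd33 from 65.8 to 23.2 CPM.

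Of 20 complement genes 10 rose and 3 fell (7 and 3 without tau replicate 2). The 13 calls became 8 without untreated replicate 2 and 8 without untreated replicate 3. C3 measured 904, 767 and 765 CPM untreated and 4302, 3334 and 4553 CPM after tau, a rise of 2.32 (SE 0.299, edgeR adjusted p = 2.06e-05). Factor B, Cfb, and C4b rose from 7.68 to 44.6 CPM and 27.3 to 69.04 CPM. C1qa, C1qb and C1qc were not called (0.63, 0.39 and 0.25). Scavenger and tau uptake receptors split, 5 higher and 6 lower of 24 (5 and 5 without tau replicate 2). The heparan sulphate proteoglycan Sdc1 measured 10.5, 9.12 and 9.44 CPM untreated and 61.3, 59.6 and 64.5 CPM after tau, a rise of 2.67 (SE 0.175, edgeR adjusted p = 1.83e-08), and the scavenger receptors Marco and Msr1 rose by 1.61 and 0.82. The mannose receptor Mrc1 fell by 1.25 and Colec12 by 0.88. Lrp1, a receptor that takes up tau, measured 1789, 1855 and 1804 CPM untreated and 1185, 557 and 1404 CPM after tau; its libraries did not overlap but it was not called at -0.79 (edgeR adjusted p = 0.112).

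G protein-coupled receptors and their regulators had 19 of 34 higher and 5 lower (19 and 4 without tau replicate 2). Fpr1 and Fpr2, receptors of formyl peptides, rose by 2.12 and 2.86. Hcar2, a receptor of niacin and ketone bodies, rose by 2.04, and Gpr84, a receptor of medium-chain fatty acids, by 3.81. Adora2a, an adenosine receptor, measured 0.617, 0.468 and 0.223 CPM untreated and 8.76, 11.8 and 8.4 CPM after tau. The lysophosphatidylserine receptor Gpr34 measured 24.4, 31.1 and 31.4 CPM untreated and 3.65, 3.27 and 1.77 CPM after tau, a change of -3.32 (SE 0.245, edgeR adjusted p = 6.14e-08). Gpr183, a receptor of oxysterols, fell from 6.24 to 0.369 CPM. Of 29 ion channels and purinergic receptors 7 rose and 3 fell (8 and 3 without tau replicate 2), with the volume-regulated channel subunit Lrrc8c at 2.08, P2rx4 at 0.62 and the potassium channel Kcnj2 at -1.67.

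In nitric oxide, arginine and itaconate metabolism 7 of 14 genes rose and 1 fell (5 and 1 without tau replicate 2). Nos2, the inducible nitric oxide synthase, measured 3.6, 1.11 and 0.558 CPM untreated and 70.7, 52.5 and 75.4 CPM after tau, a rise of 5.21 (SE 0.463, edgeR adjusted p = 4.1e-07) on 99 counts without tau. Acod1, which makes itaconate, measured 40.6, 23.97 and 28.7 CPM untreated and 741, 733 and 685 CPM after tau, a rise of 4.53 (SE 0.342, edgeR adjusted p = 7.1e-08). Ass1, which recycles citrulline to arginine, and Gch1, which makes the cofactor of Nos2, rose by 2.23 and 1.33. Arg1, which competes with Nos2 for arginine, measured 27.8, 23.97 and 23.3 CPM untreated and 8.28, 12.3 and 10.7 CPM after tau and fell by 1.26.

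Lipid mediator genes split, 10 higher and 7 lower of 25 (9 and 7 without tau replicate 2). On the synthesis side, Ptgs2, the inducible cyclooxygenase, measured 0.977, 0.994 and 1.17 CPM untreated and 15.1, 12.97 and 14.2 CPM after tau, a rise of 3.74 (SE 0.398, edgeR adjusted p = 2.75e-06). The prostaglandin E synthase Ptges measured 5.503, 5.15 and 4.02 CPM untreated and 48.8, 53.6 and 49.6 CPM after tau, a rise of 3.37 (SE 0.2997, edgeR adjusted p = 4.08e-07). The constitutive Ptgs1 and the prostaglandin D synthase Hpgds fell by 0.72 and 0.47, and Hpgd, on the degradation side, fell as given above. Ch25h, which makes an oxysterol that blocks sterol synthesis and viral entry, measured 2.98, 1.29 and 2.904 CPM untreated and 64.4, 72.4 and 51.7 CPM after tau, a rise of 4.7 (SE 0.275, edgeR adjusted p = 5.63e-09).

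In the list of the phagocyte oxidase and superoxide handling 4 of 10 genes rose and 0 fell, with and without tau replicate 2. The mitochondrial superoxide dismutase Sod2 measured 80.5, 65.1 and 76.6 CPM untreated and 402, 519 and 398 CPM after tau, a rise of 2.57 (SE 0.229, edgeR adjusted p = 4.2e-07), and the oxidase subunits Ncf1 and Ncf4 rose by 0.8 and 1.07. Cybb, the catalytic subunit, was at 0.16, not called. Of 26 NRF2, glutathione and thioredoxin genes 11 rose and 2 fell (7 and 2 without tau replicate 2). Prdx5, a peroxiredoxin, measured 295, 239.9 and 279 CPM untreated and 1147, 2274 and 1517 CPM after tau, a rise of 2.6 (SE 0.416, edgeR adjusted p = 0.000177), and Txn1, thioredoxin, rose by 1.63. Catalase, Cat, and Gclc, of glutathione synthesis, fell by 0.84 and 0.83. Hmox1, at 0.34, and Nqo1, at 1.05, lost their calls without tau replicate 2.

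Iron genes moved both ways, 7 higher and 6 lower of 19 (7 and 3 without tau replicate 2). Slc40a1, ferroportin, the only known iron exporter, measured 120.1, 145 and 142 CPM untreated and 24.7, 23.02 and 22.9 CPM after tau, a change of -2.53 (SE 0.117, edgeR adjusted p = 8.45e-10). The storage chain Fth1 rose by 1.19, while the light chain Ftl1 was at 0.24, not called. Lipocalin, Lcn2, which sequesters bacterial iron carriers, measured 0.463, 0.292 and 0.168 CPM untreated and 11.4, 14.1 and 8.34 CPM after tau. Haptoglobin, Hp, and ceruloplasmin, Cp, rose from 28.6 to 237 CPM and 88.7 to 171 CPM, and the divalent metal transporters Slc11a1 and Slc11a2 by 1.0 and 0.6. Tfrc, the transferrin receptor, was at 0.006, not called.

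Cholesterol synthesis and uptake fell as a pathway: 23 of 25 genes fell and 0 rose, with all libraries and without tau replicate 2, and the median log2 change was -1.26 (-1.1 without that library). Cyp51, a sterol demethylase, measured 79.9, 77.8 and 74.4 CPM untreated and 14.9, 14.8 and 12.5 CPM after tau, a change of -2.46 (SE 0.1299, edgeR adjusted p = 2.18e-09). Sqle, which makes squalene epoxide, measured 38.8, 41.4 and 38.5 CPM untreated and 8.09, 8.21 and 5.43 CPM after tau, a change of -2.45 (SE 0.165, edgeR adjusted p = 2.38e-08). Hmgcs1, whose promoter is shown above, measured 77.9, 76.2 and 71.5 CPM untreated and 32.98, 28.6 and 27.6 CPM after tau, a change of -1.34 (SE 0.151, edgeR adjusted p = 5.21e-06). The master factor Srebf2 and its escort Scap fell by 1.1 and 0.54. The sterol-sensing retention protein Insig1 fell by 1.29. The members not called were Pmvk (-0.26) and Ebp (-0.19).

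Targets of the sterol receptor LXR split evenly, 6 higher and 6 lower of 21, also without tau replicate 2. Nr1h3, LXR alpha itself, measured 21.3, 19.4 and 21.2 CPM untreated and 91.04, 122 and 90 CPM after tau, a rise of 2.29 (SE 0.1699, edgeR adjusted p = 6.27e-08), and the exporter Abcg1 rose from 173 to 565 CPM. Abca1, the other main exporter, measured 472, 498 and 498 CPM untreated and 858, 382 and 878 CPM after tau and was called only without tau replicate 2 (edgeR adjusted p = 0.202 with all libraries and 0.0275 without). Apoe, the lipid carrier, measured 26948, 26553 and 29752 CPM untreated and 15406, 27859 and 19024 CPM after tau and was not called at -0.42. Lysosomal acid lipase, Lipa, and Soat1, which stores cholesterol as ester, fell by 0.75 and 0.44. Of 30 fatty acid, lipid storage and PPAR genes 7 rose and 9 fell (5 and 9 without tau replicate 2). The acyl-CoA synthetase Acsl1 measured 56.1, 45.7 and 46.1 CPM untreated and 362, 288 and 359 CPM after tau, a rise of 2.77 (SE 0.24, edgeR adjusted p = 3e-07). The receptor Pparg, the fatty acid binding protein Fabp4 and the synthase Fasn fell by 1.51, 1.77 and 1.5.

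**Figure D3:**
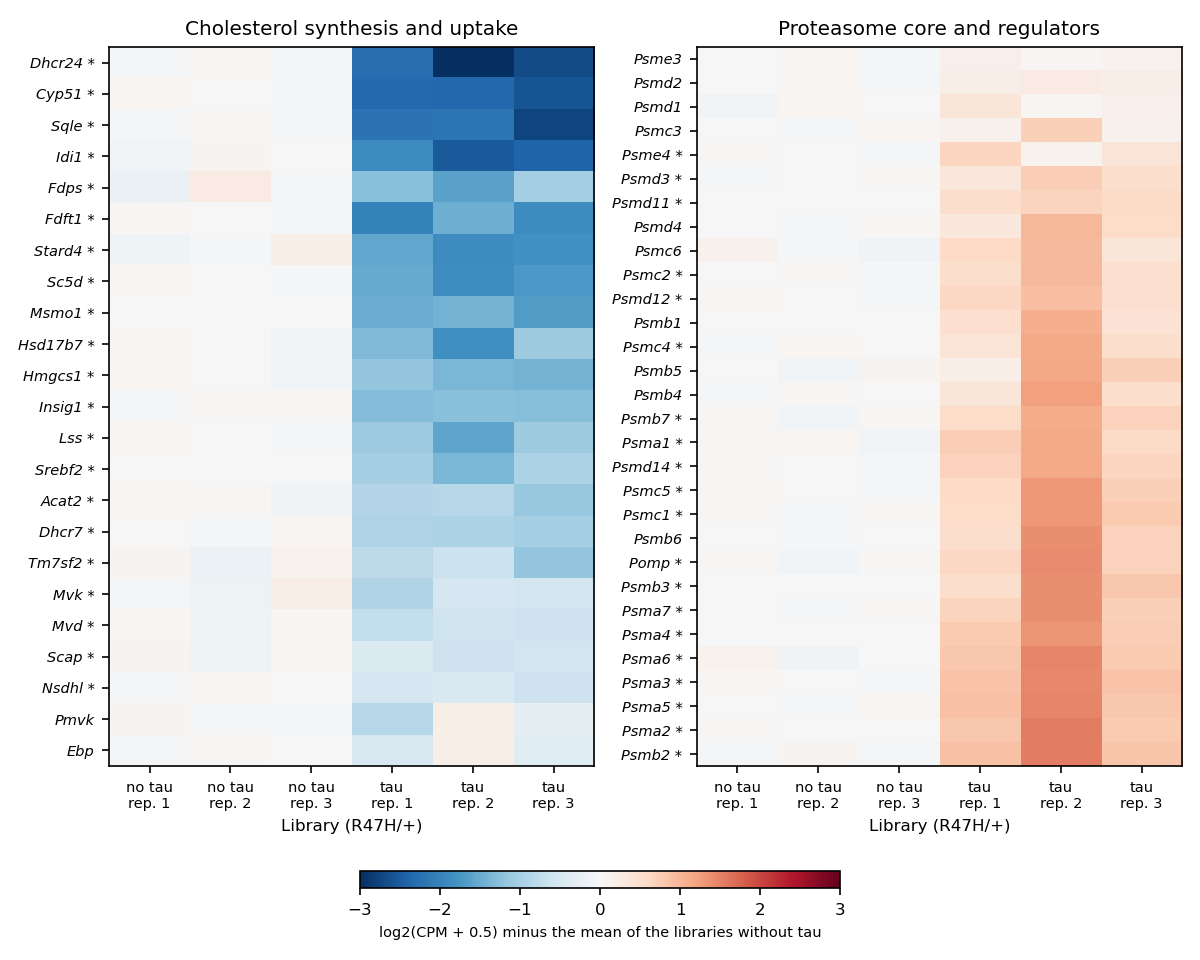
Change of each library from the mean of the untreated R47H/+ libraries (colour, log2(CPM + 0.5) difference) for tested members (rows) of the cholesterol list (left) and the proteasome list (right); an asterisk marks a called gene. The called cholesterol genes shown are lower in all 3 libraries with tau, while proteasome genes such as Psma2 and Psmb2 are highest in tau replicate 2.

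The count of called proteasome genes depended on the libraries used. With all libraries 20 of 30 members rose and 0 fell, and 4 rose and 0 fell without tau replicate 2. Without untreated replicates 1, 2 and 3 in turn 9, 8 and 7 were called. Without both libraries with a length trend 28 were called, and 26 with a gene-length offset. Of all 13267 genes tested 5735 and 4278 were called in these settings. Psmb2, a core subunit, measured 45.98, 50.1 and 45.2 CPM untreated and 87.4, 137 and 84 CPM after tau, with tau replicate 2 the highest. Its rise was 1.13 with all libraries and 0.86 without (edgeR adjusted p = 0.0027 and 0.0187). Psma2 measured 77.04, 74.4 and 75.1 CPM untreated and 133, 220.1 and 129 CPM after tau, and its call was lost without tau replicate 2 (edgeR adjusted p = 0.142). The median of the list was 0.79 with and 0.59 without that library, and in 29 of 30 members every library with tau lay above every library without, beside 24.9% of all genes tested. The 3 members called both ways besides Psmb2 were Psmd11, Psmd3 and Psme4.

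Chaperones of the heat shock families had 12 of 30 higher and 0 lower (10 and 0 without tau replicate 2), with the constitutive Hspa8 up from 1131 to 1806 CPM and the mitochondrial Hspa9 from 241 to 374 CPM. The inducible Hspa1a and Hspa1b, near-identical copies whose reads may be shared, rose from 0.422 to 1.68 CPM and 0.432 to 1.45 CPM. Of 36 cytosolic ribosomal proteins 0 rose and 0 fell by edgeR, with and without tau replicate 2, and their median went from 0.095 to -0.23 when it was left out. At an unadjusted p under 0.05 the edgeR count was 1, and DESeq2 called 0. Without both libraries with a length trend 19 of 36 were called, beside 5735 of all 13267 genes tested. Ribosome biogenesis had 2 higher and 4 lower of 30 (1 and 4 without tau replicate 2), with the assembly factor Utp20 at -1.05 and the polymerase subunit Polr1b at -0.86.

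Lysosomal genes fell more often than they rose, 12 lower and 4 higher of 38 (12 and 3 without tau replicate 2). The shares over all genes tested were 12.6% lower and 15% higher. The proton pump subunits Atp6v0d2, Atp6v0a1 and Atp6v1a fell by 1.76, 0.91 and 0.61. Ctsc, a protease that activates granule enzymes, measured 883, 798 and 811 CPM untreated and 2414, 2414 and 2215 CPM after tau, a rise of 1.5 (SE 0.104, edgeR adjusted p = 3.32e-08). The autophagy receptor Sqstm1 rose by 0.68, while Ctsb, Ctsd and Lamp1 were not called (-0.12, -0.34 and -0.16).

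Glycolysis and the hypoxia response had 14 of 28 higher and 5 lower (12 and 5 without tau replicate 2). The hexose transporter Slc2a6 measured 42.2, 34.5 and 32.2 CPM untreated and 314, 365 and 338 CPM after tau, a rise of 3.22 (SE 0.259, edgeR adjusted p = 1.3e-07). The main glucose importer Slc2a1 rose from 39.4 to 65.7 CPM, Hk3 from 343 to 618 CPM, Pkm from 692 to 1322 CPM and Ldha from 379 to 697 CPM. The lactate exporter Slc16a3 rose by 0.83 and Slc16a1 fell by 0.95. The calls of Aldoa and Tpi1 were lost without tau replicate 2, and Hk2 was at -0.021, not called. Of 28 genes of the pentose phosphate path, folate and nucleotide synthesis 5 rose and 3 fell (4 and 4 without that library); the serine enzyme Phgdh and the mitochondrial folate enzyme Mthfd2 rose by 1.44 and 1.44, and Cad, of pyrimidine synthesis, fell by 1.29. The citrate cycle had 2 higher and 3 lower of 27 (0 and 2 without it, and 2 calls without each untreated replicate), and the cytosolic and mitochondrial isocitrate dehydrogenases Idh1 and Idh2 fell by 0.73 and 0.68. Oxidative phosphorylation had 5 higher and 0 lower of 32 (4 and 0 without it, and 3 calls without untreated replicate 3), with cytochrome c, Cycs, up from 33.1 to 118 CPM. Of all genes tested 15% rose and 12.6% fell. The pentose phosphate, citrate cycle and oxidative phosphorylation counts did not stand far above these shares. In 20 of 32 oxidative phosphorylation genes every library with tau lay above every library without, beside 24.9% of all genes tested. The median log2 change of that list was 0.37, and 0.21 without tau replicate 2.

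The ATF4 and unfolded protein list had 16 of 31 higher and 3 lower (15 and 2 without tau replicate 2). Atf4 rose by 0.76, and its targets Ddit3, Trib3, Chac1 and Asns by 1.35, 1.79, 1.62 and 1.31. The amino acid exchanger chains Slc7a5 and Slc3a2 rose by 1.27 and 0.63, and Slc1a5, a glutamine carrier, fell by 0.54.

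Trem2, the gene of the R47H allele, is given in every library, although whether reads of the hTrem2 allele count toward the mouse gene is not given in the sources used here. It measured 451, 454 and 489 CPM untreated and 128, 243 and 155 CPM after tau, a change of -1.41 (SE 0.251, edgeR adjusted p = 0.000495). Among 23 signalling partners 9 rose and 3 fell (8 and 2 without tau replicate 2). Its adaptor Tyrobp and the kinase Syk were at 0.033 and 0.11, and Plcg2 at 0.021, none called. The paralogs Treml2 and Treml4 rose from 40.02 to 98.7 CPM and 1.32 to 7.92 CPM, the phosphatase Ptpn6 and the exchange factor Vav1 by 0.97 and 0.68. In the PI3K, Akt and mTOR list 7 rose and 9 fell of 36 (7 and 8 without tau replicate 2), beside 15% and 12.6% of all genes tested. Akt1 fell by 0.37, and Akt2 was at -0.14, not called. The FOXO factors Foxo1, Foxo3 and Foxo4, which Akt holds out of the nucleus, fell by 0.93, 0.74 and 1.05, and Irs2, a gene that FOXO factors drive, fell as given above. The catalytic subunit Pik3cd rose by 0.8 and Pik3ca fell by 0.55. The mTOR inhibitor Deptor fell by 1.63, and Trib3, which binds Akt, rose by 1.79.

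Homeostatic microglial genes fell more often than they rose, 8 lower and 3 higher of 23 (6 and 3 without tau replicate 2). Over all genes tested 12.6% fell and 15% rose (9.2% and 12.3% without that library), which also applies to the lists that follow here. Gpr34, Cx3cr1 and the transcription factor Mef2c fell by 3.32, 1.23 and 1.27, while the purinergic receptors P2ry12 and P2ry13 rose by 0.68 and 1.35. The call of the identity factor Sall1 (-0.87) was lost without tau replicate 2. In the disease-associated list 13 fell and 4 rose of 34 (14 and 2 without tau replicate 2). Cst7, a cathepsin inhibitor, measured 26.5, 22.3 and 20.6 CPM untreated and 129, 176 and 112 CPM after tau, a rise of 2.58 (SE 0.249, edgeR adjusted p = 9.54e-07), and it stood with Fth1 as the members that rose both ways. The tetraspanin Cd9, Itgax, Lpl and Clec7a fell by 1.72, 0.94, 0.61 and 0.5. Among 40 lineage transcription factors 8 rose and 9 fell (5 and 8 without that library). Cebpb and Cebpd rose by 1.37 and 1.46 while Cebpa measured 484, 491 and 485 CPM untreated and 148, 172 and 158 CPM after tau and fell by 1.61. The hypoxia factor Epas1 fell by 2.26 and Spi1, the macrophage factor PU.1, rose by 0.72.

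Surface molecules of costimulation and adhesion had 16 of 34 higher and 7 lower (15 and 7 without tau replicate 2). The early activation antigen Cd69 measured 6.48, 5.26 and 5.64 CPM untreated and 78.02, 93.8 and 68.4 CPM after tau, a rise of 3.79 (SE 0.262, edgeR adjusted p = 3.06e-08), and Icam1 measured 49.1, 44.7 and 54.4 CPM untreated and 279.6, 243 and 288 CPM after tau, a rise of 2.45 (SE 0.305, edgeR adjusted p = 1.44e-05). The T cell ligands Cd86, Cd274 and Icosl rose by 1.36, 1.42 and 1.16, while Cd83 and the integrin chains Itga6, Itgav and Itgb5 fell by 1.13, 1.34, 0.98 and 1.0. In the matrix list 7 rose and 7 fell of 28 (8 and 6 without that library). The membrane metalloproteinase Mmp14 measured 64.5, 48.7 and 52.9 CPM untreated and 285, 227 and 291 CPM after tau, a rise of 2.27 (SE 0.267, edgeR adjusted p = 7.71e-06). Timp2, an inhibitor, fell from 717 to 359.9 CPM, and coagulation factor F13a1 from 5.68 to 0.548 CPM, the latter on 28 counts with tau.

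Of 36 replication and S phase genes 13 rose and 0 fell (11 and 0 without tau replicate 2), among them the clamp loader Rfc5, the helicase genes Mcm5 and Mcm10 and the ribonucleotide reductase Rrm2, by 1.17, 1.11, 1.34 and 1.65. Of 35 mitosis genes 7 rose and 2 fell, the same as without that library, beside 15% higher and 12.6% lower of all genes tested. The proliferation marker Mki67 measured 9.62, 9.59 and 8.26 CPM untreated and 20.8, 14.8 and 19.5 CPM after tau and rose by 1.0; Cdk1 and Ccnb1 were not called (0.26 and 0.35). Of 24 G1 cyclins and inhibitors of cyclin-dependent kinases 7 rose and 1 fell, the same as without that library. The G1 cyclin Ccnd2 measured 9.77, 8.303 and 7.26 CPM untreated and 66.1, 37.2 and 64.9 CPM after tau, a rise of 2.73 (SE 0.283, edgeR adjusted p = 2.13e-06). Ccnd1 was at 0.7, not called, the inhibitor Cdkn1a rose by 0.42 and Cdkn1b fell by 0.55. Of 31 genes of cell death and survival 18 rose and 2 fell (16 and 0 without tau replicate 2). Genes of both roles rose: the survival kinase Pim1 and Bcl2l1 by 1.61 and 0.62, the necroptosis effector Mlkl and the caspase Casp8 by 1.94 and 0.74.

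**Figure D4:**
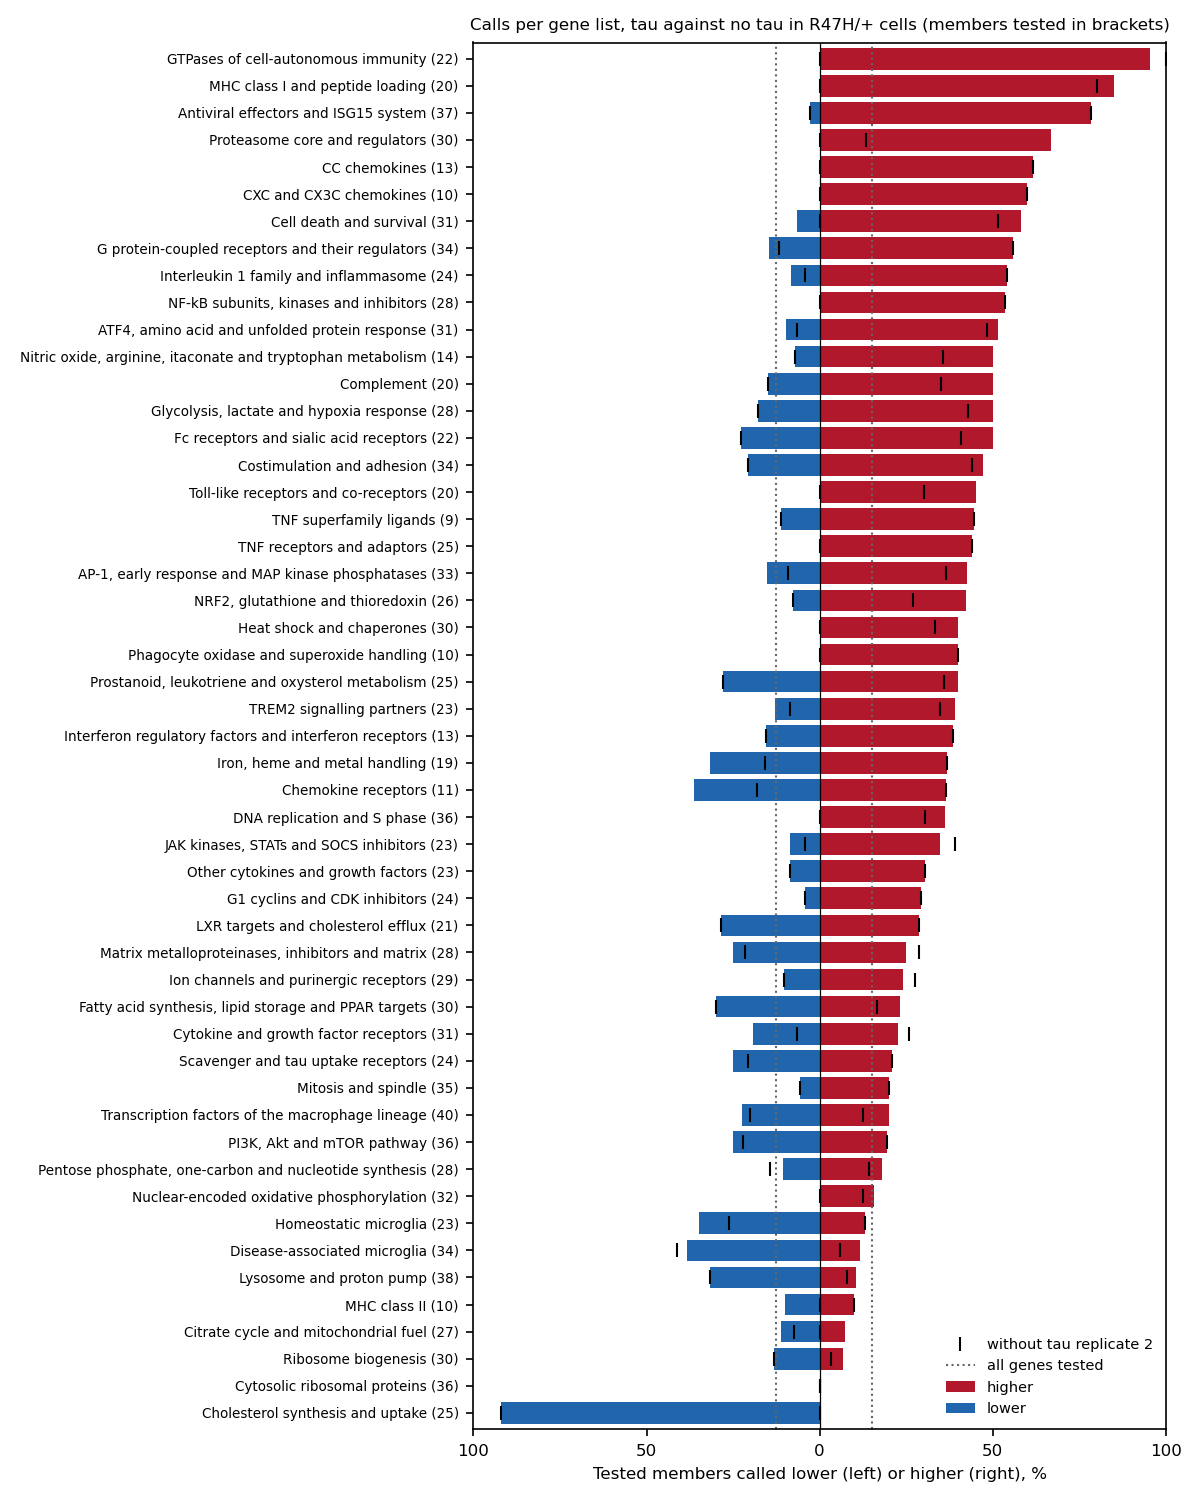
Percent of tested members (x axis) called higher (red, right) or lower (blue, left) with tau in each of 51 gene lists (rows, members tested in brackets); ticks show the same without tau replicate 2 and dotted lines the 15% and 12.6% of all genes tested. Immunity GTPases reach furthest to the right and cholesterol synthesis furthest to the left, and the proteasome bar and tick differ most.

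Whether the response depended on genotype was tested as an interaction, the R47H/+ response minus the Trem2+/+ response, with no library shared between the 2 responses. It was called for 713 genes (5.37% of those tested; 272 higher and 441 lower), and for 518 (3.9%) without tau replicate 2. The count rose to 1602 without Trem2+/+ replicate 1 and dropped to 470 without untreated R47H/+ replicate 2. On the log2 scale the interferon-driven families rose less in R47H/+ cells. Of 22 GTPases 20 had a called difference, 0 of them higher (19 and 0 without tau replicate 2), beside 2.05% higher and 3.32% lower of all genes tested, and their median rise was 1.84 in R47H/+ and 3.68 in Trem2+/+ cells. Of 37 antiviral genes 29 had one, 0 of them higher (28 and 0 without that library), with medians of 1.14 and 2.44. Gbp4 measured 28.6, 26.8 and 27.6 CPM without and 168, 129 and 144 CPM with tau in R47H/+ cells. In Trem2+/+ cells it measured 0.676, 1.42 and 0.675 CPM without and 60.8, 69.6 and 73.5 CPM with tau. The difference of the responses was -3.74 (SE 0.281, edgeR adjusted p = 9.77e-07); R47H/+ libraries lay above Trem2+/+ libraries in both conditions, and the gap was wider without tau on the log2 scale and wider with tau in CPM. Ifi44, an interferon-induced protein, went from 2.91, 3.62 and 3.92 to 102, 121 and 122 CPM in Trem2+/+ and from 70.6, 65.4 and 54.95 to 245, 198 and 201 CPM in R47H/+ cells. Both genes started from a higher untreated level in R47H/+ cells, and their gain in CPM was larger there. Iigp1, Gbp11, Apol9a and Apol9b had differences of -3.28, -3.78, -4.14 and -3.49; the last 2 are close copies. Gbp11 and Apol9a lay between 0 and 0.367 CPM and between 0 and 0.208 CPM in untreated Trem2+/+ libraries, so their fitted differences depend on the prior count.

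In the opposite direction on the log2 scale, 13 of 33 early response and phosphatase genes and 6 of 28 NF-kB genes had a called difference. In 13 and 6 of them the R47H/+ response was the more positive. Without tau replicate 2 these counts were 11 and 5, with 11 and 5 more positive in R47H/+. The median log2 change of the early response list was 0.38 in R47H/+ and -0.56 in Trem2+/+ cells. For the NF-kB list the medians were 0.51 and 0.38. Ch25h rose by 4.7 in R47H/+ and 2.28 in Trem2+/+ cells, from 2.23, 1.88 and 2.97 to 9.805, 12.8 and 11.4 CPM in the latter, a difference of 2.43 (SE 0.368, edgeR adjusted p = 0.00073). Clec4e rose by 4.17 and 1.74, Cd40 by 4.05 and 2.74, and Marcksl1, an actin regulator, by 3.04 and 0.81. Untreated Trem2+/+ libraries were spread widely for Clec4e (30.1, 100.7 and 91.7 CPM) and Marcksl1 (66.9, 129 and 176.9 CPM). The Trem2+/+ rise of both genes therefore depends on which untreated libraries are used. Nes, the filament gene nestin, measured 18, 14.7 and 14.3 CPM without and 32.98, 33.8 and 41.9 CPM with tau in R47H/+ cells, and 45.5, 29.5 and 31.4 CPM without and 16.7, 17.4 and 19.03 CPM with tau in Trem2+/+ cells, where it was at -1.0. The transcription factor Egr2 was at -0.69 in R47H/+ and -2.91 in Trem2+/+ cells. In R47H/+ cells it measured 11.4, 11.3 and 11.1 CPM without and 6.88, 6.6 and 7.49 CPM with tau. In Trem2+/+ cells it measured 66.7, 49.6 and 51.6 CPM without and 7.22, 7.94 and 7.215 CPM with tau. Its ranges with tau overlapped between genotypes, and those without tau did not. Of the 15 strongest falls 11 were larger in R47H/+ cells by this test, beside 3.32% of all genes tested with a called lower difference. They were chosen on the R47H/+ response, which is part of the difference and favours this direction. The count is therefore not a test of genotype. The calls of Hpgd, Reps2 and Slc40a1 were lost without tau replicate 2. Rasgrp3 was at -4.22 against -2.47, Gpr34 at -3.32 against -1.88 and Tln2, a talin, at -2.71 against -0.69. Untreated levels of these genes were higher in R47H/+ cells, for Gpr34 24.4 to 31.4 CPM against 9.1 to 14.65 CPM in Trem2+/+ cells. With tau the ranges of Gpr34 overlapped between genotypes, and those of Rasgrp3 and Tln2 lay lower in R47H/+ cells. Of 25 cholesterol genes 2 had a called difference, and 0 without that library.

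**Figure D5:**
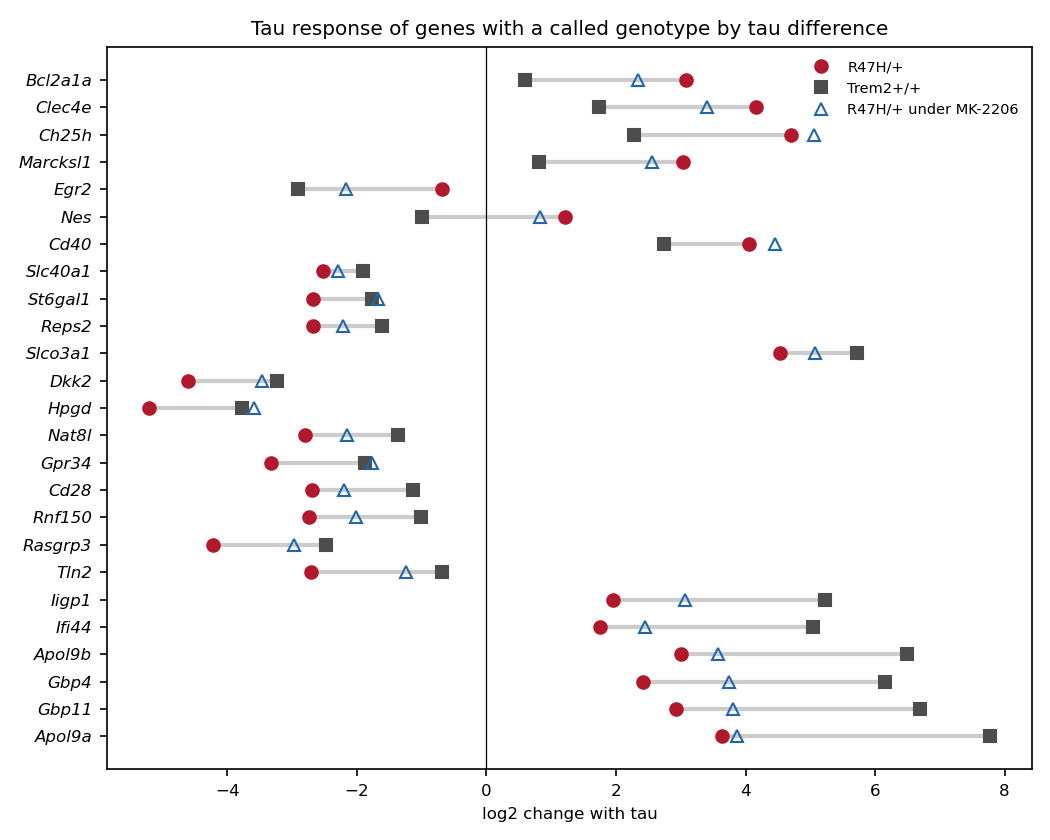
Log2 change with tau (x axis) of 25 genes with a called genotype by tau difference, in R47H/+ (circles), Trem2+/+ (squares) and R47H/+ cells under MK-2206 (triangles), each over 3 libraries against 3. Gbp4, Gbp11 and the Apol9 genes at the bottom rose more on this scale in Trem2+/+ cells, and genes such as Clec4e at the top rose more in R47H/+ cells.

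The effect of the Akt inhibitor on the tau response was tested as the R47H/+ response without MK-2206 minus that with it. It was called for 50 genes (0.377% of those tested), 26 higher (0.196%) and 24 lower (0.181%), and for 26 (0.196%) without tau replicate 2. It lay between 9 and 43 with any 1 of the 12 libraries left out, 9 being without untreated R47H/+ replicate 2. Cx3cr1 measured 83.7, 92.6 and 81.5 CPM without and 40.4, 30.4 and 38.9 CPM with tau, and under MK-2206 23.97, 17.9 and 17.8 CPM without and 35, 31.4 and 37.5 CPM with tau, a difference of -2.03 (SE 0.24, edgeR adjusted p = 0.00394). Cx3cr1 fell with tau without the inhibitor, and under it rose by 0.8 from a lower untreated level. Ccr2 was at -0.56 without and 1.06 with the inhibitor, and Tnfsf8, a ligand of the TNF superfamily, at 0.28 and 2.06. Dusp1 measured 10.1, 9.24 and 8.77 and 27.1, 26.6 and 28 CPM without the inhibitor, and 14.3, 13.3 and 13.2 and 10.5, 16.4 and 15.8 CPM under it, each without and with tau, a difference of 1.47 (SE 0.207, edgeR adjusted p = 0.00522). Fos was at 0.38 without and -0.84 with the inhibitor, Egr2 at -0.69 and -2.17, and Sdc1 at 2.67 and 1.19. Gbp8 rose by 1.13 without and 2.45 with the inhibitor. Without MK-2206 it measured 46.5 to 52.4 CPM untreated and 92.2 to 115.8 CPM with tau. Under MK-2206 these ranges were 17.6 to 18.3 CPM and 94.5 to 102.9 CPM. For Gbp8, Ccr2 and Egr2 the ranges with tau overlapped between the inhibitor settings, and those without tau did not. For Fos only the ranges without tau overlapped, and for Sdc1 and Tnfsf8 neither did. For Tnf and Ccl2 the difference was 0.32 and -1.5, not called (edgeR adjusted p = 0.847 and 0.107). Of 25 cholesterol genes 17 were lower with tau under MK-2206, beside 11.3% of all genes tested, with a median of -0.84.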

How the data were processed

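Raw read counts per gene were deposited by the authors as 1 table of 18 bulk RNA libraries, with the gene length, start and end in base pairs; STAR, featureCounts and DESeq2 and the builds GRCm38 and mm10 are named in the submitters' processing notes, with no versions. Libraries were read as paired ends of 150 bases, per the labels' protocols. Groups were taken from the titles. Of 54532 genes, 27 symbols that had turned into dates were restored, and filterByExpr left 13267. Counts were scaled by TMM and fitted with edgeR 4.0.16 (R 4.3.3, limma 3.58.1) with a term for each of 6 groups over all 18 libraries (12 residual degrees of freedom), which pools the spread, and tested by quasi-likelihood with Benjamini-Hochberg adjustment at 0.05. Fold changes are edgeR log2 values. CPM of single genes are counts scaled to the TMM-adjusted library size, and sums over marker lists are scaled to the total counts of each library. Each interaction is a contrast of 2 responses in the same fit.

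The 51 gene lists, the 8 marker lists and the members were chosen with earlier results of these data known. Genes named by rule were the 15 highest and 15 lowest called genes by fold with log2 CPM averaging 3 or more, at least 30 counts in the lower group and ranges that did not overlap; 6 members of each list with the smallest p and 3 called members in the minority direction; a fixed panel; the marker lists; and 6 genes in each direction of each interaction. Some genes are not reported here, but counts over lists and over all genes include them. Other list members, and the genes with the largest change in level, were named after their values were seen. Motifs were searched in 250 bases upstream of RefSeq starts.

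On simulated counts for 13267 genes of the tau comparison, the fit recovered 9% of 67 genes changed 1.5-fold, 52.2% of 67 changed 2-fold and 81.8% of 66 changed 4-fold, and called 6 unchanged genes. Depth ran from 16288531 to 20686299 counts, and its precision enters through the fit's spread. Alternatives were RLE scaling, no count filter, a gene-length offset, DESeq2 1.42.0, the compared groups alone, a replicate block, and libraries left out.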

Additional observations from a re-analysis of the deposited data

Results flagged for a closer look

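Responses that differed between cell groups are listed with the size of the difference on the log2 scale, each from the interaction term of the edgeR fit over 3 libraries a group. The genotype by tau difference was called for 713 genes and the MK-2206 by tau difference for 50 genes. Each is a difference of log2 changes, so it also depends on the untreated levels, which differed for genes such as Egr2 and Gbp8.

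The response in R47H/+ cells was the more positive for Bcl2a1a, which has close copies, by 2.486, for Clec4e by 2.434, Ch25h by 2.428, Marcksl1 by 2.232, Egr2 by 2.216, Nes by 2.208 and Cd40 by 1.312. The difference was below 0 for Apol9a at -4.136, Gbp11 at -3.778, Gbp4 at -3.739, Apol9b at -3.49, Ifi44 at -3.294 and Iigp1 at -3.275, all of which rose in both genotypes. It was -2.022 for Tln2, -1.741 for Rasgrp3, -1.729 for Rnf150, -1.556 for Cd28, -1.446 for Gpr34, -1.442 for Nat8l, -1.436 for Hpgd, -1.371 for Dkk2, -1.19 for Slco3a1, -1.06 for Reps2, -0.9111 for St6gal1 and -0.6255 for Slc40a1. The calls of Slco3a1, Hpgd, Reps2, Slc40a1 and Bcl2a1a were lost without R47H/+ tau replicate 2 (edgeR adjusted p = 0.0955, 0.0511, 0.0558, 0.0616 and 0.0538). In untreated Trem2+/+ replicates 1, 2 and 3 Bcl2a1a measured 9.1, 9.4 and 38.7 CPM, and replicate 3 has a length trend.

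The response without MK-2206 was the more positive for Egr2 by 1.485, Sdc1 by 1.481, Dusp1 by 1.471, the protease Adam8 by 1.263, Fos by 1.22 and the helicase Zranb3 by 1.11. The difference was below 0 for Cx3cr1 at -2.032, Tnfsf8 at -1.779, Ccr2 at -1.613, Gbp4 at -1.327, Gbp8 at -1.312, the exchange factor Fgd2 at -1.215, Dkk2 at -1.145 and St6gal1 at -0.9982. The calls of Dkk2, Gbp4, Adam8 and Zranb3 were lost without R47H/+ tau replicate 2 (edgeR adjusted p = 0.111, 0.0672, 0.0541 and 0.0637).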

How the results depend on the processing

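The count of 3667 genes changed by tau was 3649 with RLE scaling, 3197 with no filter on low counts, 3885 with the compared groups alone, 4278 with a gene-length offset and 4060 with DESeq2, and ran from 2703 to 3379 with 1 library of the comparison left out. Without both libraries with a length trend (Trem2+/+ replicate 3 and R47H/+ tau replicate 2) it was 5735. Same-numbered libraries did not deviate together (r = -0.058, -0.062 and -0.002), so the numbers were not taken as pairs; with a replicate block 3346 genes were called for tau, 598 for the genotype and 21 for the MK-2206 interaction. The genotype interaction, 713 genes, was called for 1206 with DESeq2, 352 with the compared groups alone, 1071 with the gene-length offset and 1551 without both libraries with a length trend, and ran from 470 (untreated R47H/+ replicate 2) to 1602 (Trem2+/+ replicate 1) with 1 library left out. The MK-2206 interaction, 50 genes, was called for 216 with DESeq2, 182 with the compared groups alone, 135 with the offset and 687 without both, and ran from 9 to 43 with 1 library left out. Of 51 gene list counts, 15 rose by over 1.5 times without both libraries, where the count over all genes went from 3667 to 5735. With the offset 3 did, where the count over all genes went from 3667 to 4278. The causes of these moves were not tested. Without both libraries, these genes, not called with all libraries, turned sign: Otulin to -0.2947, Itga4 to 0.3027, Taldo1 to -0.197, Rplp0 to -0.2252, Rplp1 to -0.1985, Rplp2 to -0.2327, Rpl8 to -0.2372, Rpl32 to -0.255, Rps4x to -0.2772 and Rps18 to -0.2212. With the offset, Lrrc8d turned to 0.2867. On simulated counts with the spread of the fit over all 18 libraries, most genes changed 1.5-fold were missed. Depth and replication were not varied, and no length trend of a single library was simulated.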
